A study of Homo sapiens with 8 samples.

Results

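Romidepsin at 40 nM was set against its vehicle, 0.1% DMSO, in MP38 cells after 24 h, across all genes counted. MP38 is a uveal melanoma (UM) cell line with mutant BAP1, a deubiquitinase and tumour suppressor, so the treated and the untreated cells share that defect. The libraries were taken by their treatment label, 2 of romidepsin and 2 of DMSO, which makes 4 of the 8 libraries of the study. The other 4 were MP38 cells given 40 nM quisinostat, another inhibitor of histone deacetylases (HDAC), or 1200 nM mivebresib, an inhibitor of BET bromodomain proteins, for the same 24 h and with 2 libraries each. All 8 came from this single line and from separate wells, so the spread between libraries is the spread between wells and p-values measure no more than that. The question behind the comparison was how drugs that are active on UM cells change their transcription. Of 35238 gene symbols in the table, 15085 passed a filter on low counts and were tested.

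HDACs remove acetyl groups from lysines of histones and of other proteins. Those of class I (HDAC1, HDAC2, HDAC3 and HDAC8) work in the nucleus, the first 3 of them inside corepressor complexes (NuRD, SIN3, CoREST and NCoR/SMRT) that transcription factors such as REST bring to DNA. Romidepsin is a cyclic depsipeptide that becomes active when the cell reduces its disulfide bond, and the freed thiol then binds the zinc in the active site of class I enzymes. HDAC inhibitors are known to raise histone acetylation, to switch on genes that are silent in the cell of origin, and to hold many cell lines back from dividing. Quisinostat is a hydroxamate, a different chemical class that binds the same zinc.

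The cells expressed markers of the melanocyte lineage, which do not by themselves identify the line. Of 8 melanocytic markers, 7 passed the filter and DCT stayed under 1 CPM (counts scaled to library size) in all 4 libraries, and their summed level was 4237 and 5498 CPM with DMSO and 5073 and 4782 CPM with romidepsin. Most of these sums came from TYRP1, at 2984.5 and 4116 CPM with DMSO and 3811 and 3541 CPM with romidepsin. TYR, another of the 8 markers, was at 1.77 and 3.43 CPM with DMSO and 2.95 and 3.31 CPM with romidepsin. SOX10 was the only marker of them called, lower by 0.39 on the log2 scale, and it was not called without romidepsin library 1 (adjusted p 0.135). All 10 leukocyte and all 5 hepatocyte markers stayed under 1 CPM. Fibroblast markers summed to between 91.0 and 144 CPM, most of it from FAP, which was called lower (log2 FC -0.53), followed by PDGFRA, and COL1A1 was called higher (log2 FC 1.51). Keratinocyte markers summed to 71.2 and 27.3 CPM with DMSO and 26.9 and 34.2 CPM with romidepsin, nearly all of it from KRT10. Of 7 endothelial markers 2 rose, KDR and ESAM, and the sum over the 7 was 4.74 and 4.13 CPM with romidepsin against 0.957 and 1.35 CPM with DMSO, while CDH5 had no count in any library. Of 6 markers of retinal pigment epithelium BEST1 and RDH5 rose, and the sum went from 11.2 and 13.8 CPM to 23.0 and 22.8 CPM. Their part in the other results was not tested. Depth hardly differed, at 29359024 and 29147977 counts with DMSO and 29068125 and 29150495 with romidepsin. The DMSO libraries were less alike than the romidepsin libraries, with a chi-square statistic per degree of freedom of 58.1 against 9.53. That statistic is computed on raw counts and weighs abundant genes most. The SD over genes of the log2 difference between the libraries of a group was 0.469 against 0.361. The difference between the DMSO libraries enters several results below. Transcripts of mitochondrial DNA made up 3.59% and 4.46% of counts with DMSO and 4.20% and 4.36% with romidepsin.

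None of the class I HDAC genes, the drug's targets, was called. HDAC1 was at 145 and 145 CPM in the DMSO libraries and 149.8 and 156 CPM in the romidepsin libraries, with a log2 fold change (FC) of 0.079 and an adjusted p of 0.493. For HDAC2 the values were 159.5 and 160.0 against 161 and 175 CPM, and for HDAC3 71.4 and 57.2 against 69.6 and 72.2 CPM. Here and in what follows, the pair of values before "against" is from DMSO libraries 1 and 2 and the pair after it from romidepsin libraries 1 and 2. HDAC8, the class I enzyme outside the corepressor complexes, was at 14.3 and 11.5 against 16.1 and 15.8 CPM (log2 FC 0.31, adjusted p = 0.0762). The groups overlapped for HDAC3 and lay side by side for the other three, and none of these 4 genes passed the test, whose threshold is an adjusted p of 0.05. Among 7 other HDACs, HDAC7 was lower at 84.8 and 83.6 against 67.1 and 62.9 CPM and HDAC9 at 138 and 119 against 106 and 107 CPM, but neither was called without romidepsin library 2 (adjusted p 0.0672 and 0.156), nor HDAC9 without DMSO library 1 (0.212) or romidepsin library 1 (0.198). The linker histone gene H1F0 (H1.0), whose protein gathers in cells that have left the cycle and which has long served as a gene that answers HDAC inhibitors, was at 177 and 166 against 334 and 337 CPM, log2 FC 0.97 ± 0.080 (SE), adjusted p = 0.000128. Its rise was not confined to HDAC inhibitors. It was at 343 and 336 CPM with mivebresib (log2 FC over DMSO 0.98) and at 258 and 246 CPM with quisinostat (0.56).

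At an adjusted p below 0.05, 2293 genes (15.2% of those tested) were higher with romidepsin and 2377 (15.8%) were lower, 31% of genes in all. Sizes were not alike in the 2 directions. Past the study's threshold of 1.5 on the log2 scale there were 569 genes higher (3.77%) and 47 lower (0.312%), and the median log2 FC was 0.81 among genes that rose and -0.53 among genes that fell. The split between directions moved with the scaling: 49.1% of calls were higher under TMM factors, 62.1% when libraries were scaled by total counts alone and 63.4% under upper-quartile factors. Both romidepsin libraries lay above both DMSO libraries for 31.2% of the genes tested and below them for 32.5%. Across all genes the median log2 FC was -0.012. The counts also moved with single libraries: 1201 higher and 985 lower without romidepsin library 1, 1384 and 1223 without romidepsin library 2, 2240 and 2155 without DMSO library 1, and 3159 and 3468 without DMSO library 2. In none of these settings was a gene called in the opposite direction. For gene lists, the range given in brackets after a count holds the lowest and highest counts when each of the 4 libraries was left out.

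**Figure D1:**
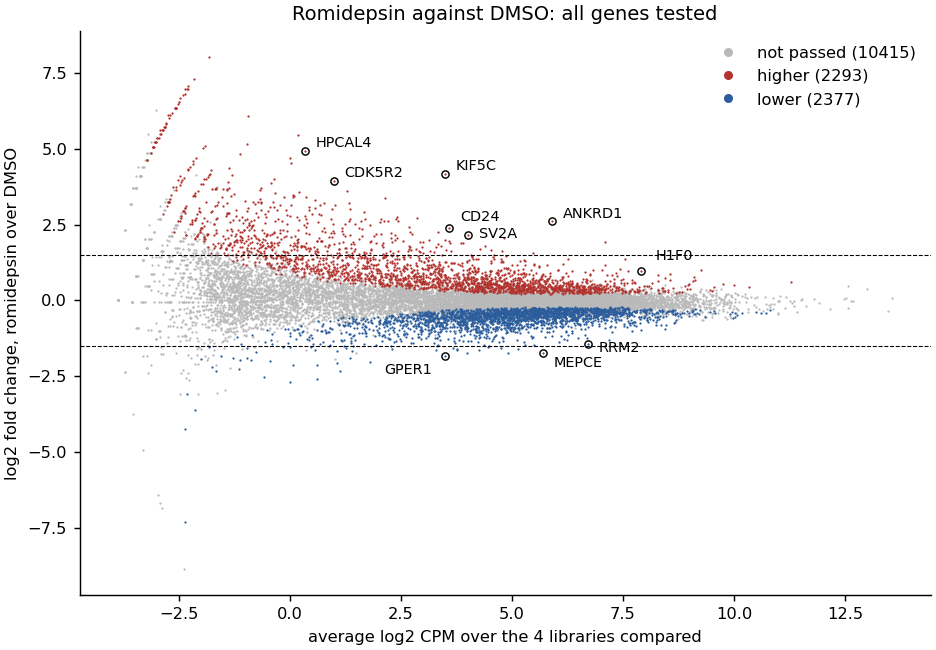
Log2 fold change of romidepsin over DMSO (vertical axis) against the average log2 CPM over the 4 libraries (horizontal axis) for the 15085 genes tested, with the 2293 genes higher in red, the 2377 lower in blue, dashed lines at 1.5 in either direction and some named genes circled. Most points beyond the upper line lie at a low average level.

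Rises and falls sat at different expression levels. Of 2545 genes with a mean log2 CPM below 0, 422 (16.6%) were higher and 31 (1.22%) were lower, and 362 of those higher were past the threshold of 1.5. Between 3 and 6 on that scale the balance turned, with 879 of 5983 genes higher (14.7%) and 1372 lower (22.9%). Of 3665 genes at 6 or over, 323 (8.81%) were higher and 686 (18.7%) lower, and a single gene passed 1.5. A gene at a low level may have passed the filter only through the group in which it was high, and a fall from a low level leaves few counts to see, so the counts in the lowest class are no measure of how many silent genes moved. Genes that rose came from longer loci, with a median span of 55.2 kb against 24.0 kb for genes that fell and 33.0 kb for all genes tested, and had a lower median GC content of the transcript, 48.1% against 52.0%. Across 9356 genes the log2 FC had a Pearson correlation of -0.18 with transcript GC content and 0.10 with log transcript length. The log ratio of DMSO library 2 over library 1, which enters the fold change, had correlations of -0.12 and 0.18 with these 2 properties, and that of romidepsin library 2 over library 1 correlations of 0.12 and -0.16. The part of either in the result was not tested.

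**Figure D2:**
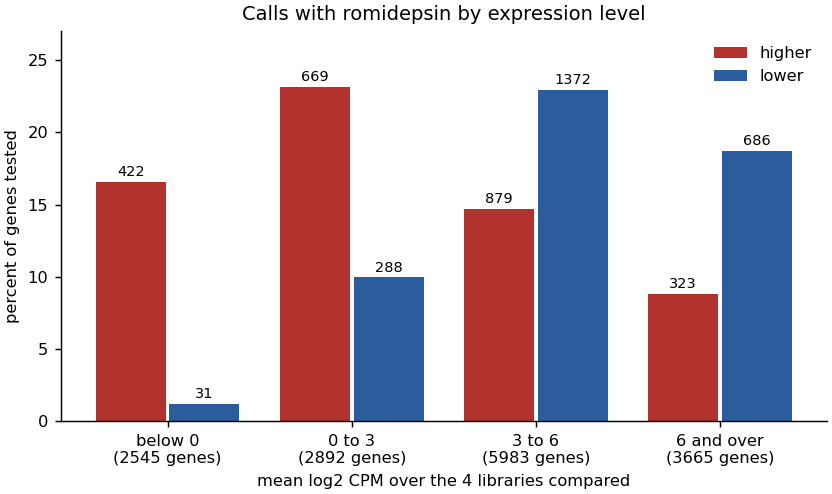
Percent of genes called higher (red) or lower (blue) with romidepsin (vertical axis) in 4 classes of mean log2 CPM over the 4 libraries (horizontal axis), with the number of calls above each bar. Higher calls outnumber lower calls below a log2 CPM of 3, and lower calls outnumber higher ones above it.

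The largest rise among genes at an average log2 CPM of at least 2 was that of KIF5C, the neuronal heavy chain of kinesin-1, which carries cargo along axonal microtubules (chr2:148875250-149026759, plus strand on GRCh38). It was at 2.16 and 3.14 CPM with DMSO and 50.2 and 45.5 CPM with romidepsin, a log2 FC of 4.17 ± 0.15 (adjusted p = 1.08e-05), and the groups stood far apart. SYT11 and SYT14, members of the synaptotagmin family that acts in membrane traffic and exocytosis, followed. SYT11 was at 1.42 and 1.24 against 15.6 and 12.02 CPM (log2 FC 3.37) and SYT14 at 2.02 and 2.05 against 13.8 and 13.4 CPM (log2 FC 2.74). SLC6A15, a transporter of branched-chain amino acids that is abundant in brain, went from 1.84 and 3.98 CPM to 21.4 and 16.98 CPM (log2 FC 2.72). PCDH10, a protocadherin of the nervous system, went from 3.58 and 5.81 to 22.6 and 21.8 CPM (log2 FC 2.24).

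Other genes among the 15 largest rises included CGN, OCLN, PLS1 and CD24. CGN encodes cingulin, a cytoplasmic plaque protein of tight junctions, and rose from 1.81 and 2.23 to 13.2 and 12.9 CPM (log2 FC 2.69 ± 0.14). OCLN, the tight junction membrane protein occludin, rose from 1.31 and 2.01 to 10.03 and 9.71 CPM, and PLS1, an actin bundler of microvilli, from 1.59 and 2.08 to 12.3 and 10.1 CPM. CD24, a glycosylated surface protein of epithelial and neural progenitor cells, was at 6.13 and 4.42 against 28.6 and 26.5 CPM (log2 FC 2.38). ANKRD1, a transcriptional cofactor and a target gene of YAP, rose from 25.2 and 23.1 CPM to 149.8 and 145 CPM (log2 FC 2.61 ± 0.092, adjusted p = 1.08e-05). CDS1, DYNC2H1, GPR19, FAM26E and FBXO41 complete the 15, with log2 FC between 2.26 and 2.69.

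Over all genes tested the log2 FC ran from -8.85 to 8.02. Among called genes at an average log2 CPM of at least 2 whose groups do not overlap, the largest falls were smaller than the largest rises. GPER1, a G protein-coupled receptor for estrogens (chr7:1082208-1093815, plus strand), had the largest among genes at that level, from 22.2 and 20.2 CPM to 5.74 and 6.23 CPM (log2 FC -1.82 ± 0.11, adjusted p = 6.08e-05). MEPCE, which caps the 7SK RNA that holds the elongation factor P-TEFb inactive, fell from 94.9 and 93.7 CPM to 28.5 and 28.5 CPM (log2 FC -1.73 ± 0.083). For both genes the libraries of a group lay close together and the groups stood apart. ZNF367, a zinc finger transcription factor, was at 53.6 and 55.7 against 15.6 and 17.4 CPM, and UHRF1, which guides maintenance DNA methylation behind the replication fork, at 31.4 and 35.6 against 12.2 and 9.68 CPM (log2 FC -1.62). ATF5, a stress-responsive transcription factor, fell from 66.5 and 55.9 to 18.5 and 21.7 CPM, and KAT6B, a histone acetyltransferase, from 18.8 and 25.2 to 7.11 and 7.75 CPM. ORC1 and CCNE2, also among the 12 largest falls, are described with DNA replication, and PATZ1, ERMAP, RABEP2 and LANCL2 had log2 FC between -1.73 and -1.56. Of the 365 genes that the naming rule allows, 176 overlap another annotated gene on the opposite strand, KIF5C, GPER1, MEPCE, CCNE2, ATF5 and KAT6B among them; whether the counting used strand is not given in the sources used here, and without it the reads of such pairs cannot be told apart.

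**Figure D3:**
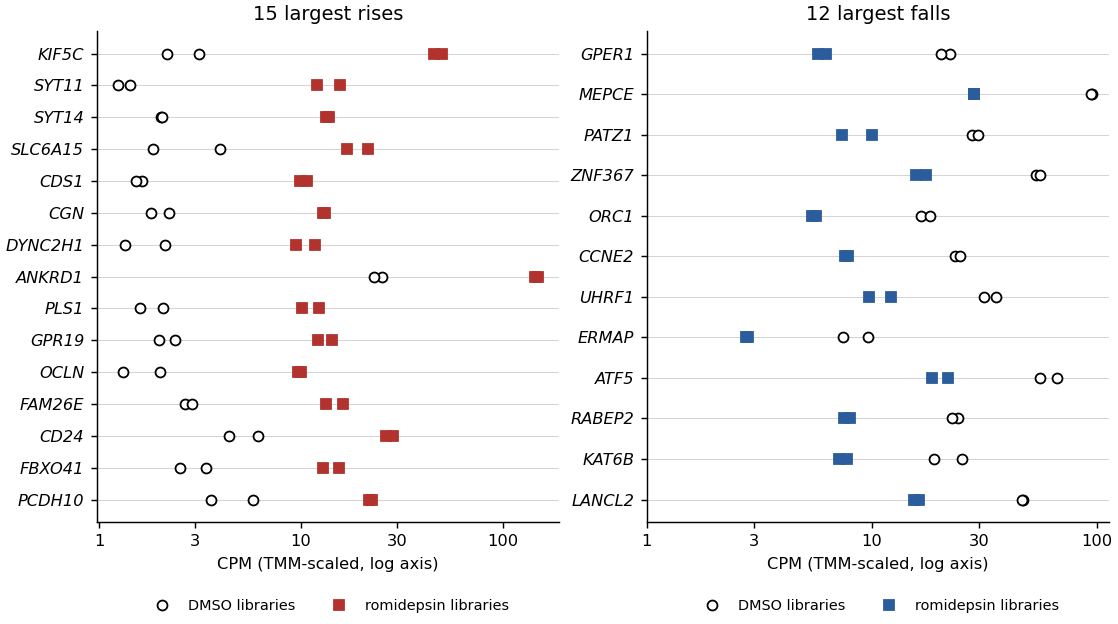
CPM in each library on a log axis for the 15 largest rises (left) and the 12 largest falls (right), with open circles for the 2 DMSO libraries and filled squares for the 2 romidepsin libraries. The rule that chose these genes required groups that do not overlap, and they run from KIF5C at 2.16 and 3.14 against 50.2 and 45.5 CPM to LANCL2 at 46.7 and 46.5 against 15.4 and 16.1 CPM.

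Some genes had no count at all with DMSO. In 54 genes both DMSO libraries were at 0 while both romidepsin libraries had more than 3 counts, against 7 genes with the reverse pattern, and 36 of the 54 were among the genes tested. These were picked by their counts, so they are a description. CACNG7, a regulatory subunit of neuronal calcium channels, had 38 and 27 counts with romidepsin, at least 10.4-fold above the level of 3 counts per DMSO library that a count of 0 allows. HOXA7 had 19 and 20 counts (at least 6.22-fold), EMX1, a homeobox gene of the forebrain, 13 and 18 (at least 4.94-fold), and SOX11, a SOX factor of immature neurons, 15 and 13 (at least 4.46-fold). Others of the 54 were KCNA4, a potassium channel, with 7 and 11, and NEUROD2, a neurogenic transcription factor, with 5 and 8. At this depth these transcripts remained rare after treatment.

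Many enzymes and readers of histone acetylation fell. Of 20 acetyltransferases and acetyl-lysine readers tested, 0 rose and 12 fell (range 0 to 1 higher, 6 to 12 lower), against 15.8% of all genes, with a median log2 FC of -0.33. Beside KAT6B, these included KAT5 (TIP60) at 39.1 and 37.3 against 21.2 and 24.3 CPM, KAT7 (HBO1) at 69.7 and 72.1 against 43.4 and 41.4 CPM, KAT2A (GCN5) with a log2 FC of -0.73, and CREBBP, the coactivator CBP, at 151 and 167 against 112 and 107 CPM (log2 FC -0.54). BRD2, the member with the most reads, was at 178 and 174 against 164 and 169 CPM, without a call. Subunits of the HDAC corepressor complexes were near the background, with 3 of 29 higher and 6 lower (range 2 to 4 higher, 2 to 10 lower). MBD3 and MTA2, both of the NuRD complex, fell by 0.81 and 0.50 on the log2 scale, and ELMSAN1 (MIDEAS), a scaffold of a mitotic deacetylase complex, had a log2 FC of 0.45.

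Polycomb proteins, which keep developmental genes silent through histone ubiquitination and methylation, moved in both directions, 5 of 32 higher and 9 lower (range 1 to 5 higher, 4 to 13 lower). These shares were 15.6% higher and 28.1% lower, against 15.2% and 15.8% of all genes tested. JARID2, a cofactor that brings the methylating complex PRC2 to its sites, rose from 9.03 and 11.3 CPM to 24.6 and 24.5 CPM (log2 FC 1.28 ± 0.13). PHF19, another PRC2 cofactor, fell from 47.7 and 40.7 to 16.9 and 18.1 CPM (log2 FC -1.34) and KDM2B, which brings the ubiquitin-ligase complex PRC1 to CpG islands, from 28.3 and 28.2 to 14.8 and 14.3 CPM (log2 FC -0.96). The calls for these 3 genes were kept under every leave-one-out. Replication-dependent histone genes gave 0 higher and 12 lower of 40 (range 0 to 1 higher, 6 to 14 lower), with HIST1H3E at 20.7 and 20.2 against 8.21 and 7.82 CPM and HIST1H2AC at 45.3 and 44.1 against 23.05 and 23.8 CPM. These genes are near copies of each other and most of their transcripts lack a poly(A) tail, so reads may be split between copies and the libraries caught only part of them. Linker and variant histones gave 1 higher, H1F0, and 4 lower of 11 (range 1 to 2 higher, 1 to 5 lower), and CENPA, the histone H3 variant of centromeres, fell from 29.3 and 19.2 to 12.4 and 12.8 CPM (log2 FC -0.95).

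The cell cycle showed its largest movement in genes of S phase and mitosis. As background, their promoters carry known elements: E2F factors, released when cyclin-dependent kinases (CDK) phosphorylate RB, drive genes of the G1/S transition, and the CHR element, often beside CCAAT boxes, binds the DREAM and MYB-MuvB complexes at genes of G2 and mitosis. Promoters of 4 genes are printed with every match to the E2F sequences TTTGGCGC and TTTCCCGC, the CHR sequence TTTGAA and the CCAAT box, on either strand, in capitals, in windows from 250 bases before to 50 bases after the start of the RefSeq transcript on GRCh38.p14. They are examples that hold such elements, shown because the shares of these elements differ between gene lists. E2F2 and CDC25A belong to the list of G1 cyclins, CDKs, E2F and RB. Only 72.7% of that list had a promoter to search, and its shares are not given. CDCA8 and TOP2A are described with mitosis. E2F2 and CDC25A hold the E2F sequence TTTGGCGC, 42 and 44 bases before the start, and CDC25A also holds 2 CCAAT boxes on the other strand, which read as ATTGG here.
E2F2, chr1:23531184-23531483, minus strand: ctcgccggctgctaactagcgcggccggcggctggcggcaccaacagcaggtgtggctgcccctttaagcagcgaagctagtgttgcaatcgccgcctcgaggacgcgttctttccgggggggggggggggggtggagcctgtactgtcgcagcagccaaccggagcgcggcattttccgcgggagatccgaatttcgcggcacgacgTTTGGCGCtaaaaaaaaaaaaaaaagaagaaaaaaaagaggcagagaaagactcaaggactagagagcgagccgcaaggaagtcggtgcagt
CDC25A, chr3:48188368-48188667, minus strand: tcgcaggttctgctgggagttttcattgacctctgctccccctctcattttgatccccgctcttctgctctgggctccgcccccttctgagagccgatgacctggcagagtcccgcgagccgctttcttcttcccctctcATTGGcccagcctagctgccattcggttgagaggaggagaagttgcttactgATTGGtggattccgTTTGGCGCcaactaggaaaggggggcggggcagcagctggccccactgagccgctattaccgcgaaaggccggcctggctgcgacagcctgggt
CDCA8 holds the CHR sequence TTTGAA 23 bases before the start and 3 CCAAT boxes on the other strand, the last of which overlaps the CHR. TOP2A holds 2 CHR and 4 CCAAT matches.
CDCA8, chr1:37692266-37692565, plus strand: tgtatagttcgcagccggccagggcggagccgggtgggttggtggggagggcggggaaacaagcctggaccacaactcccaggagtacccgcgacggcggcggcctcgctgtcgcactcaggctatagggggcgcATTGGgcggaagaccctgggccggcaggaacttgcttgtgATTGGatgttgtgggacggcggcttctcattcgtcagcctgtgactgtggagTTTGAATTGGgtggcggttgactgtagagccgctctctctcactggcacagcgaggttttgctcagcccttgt
TOP2A, chr17:40417847-40418146, minus strand: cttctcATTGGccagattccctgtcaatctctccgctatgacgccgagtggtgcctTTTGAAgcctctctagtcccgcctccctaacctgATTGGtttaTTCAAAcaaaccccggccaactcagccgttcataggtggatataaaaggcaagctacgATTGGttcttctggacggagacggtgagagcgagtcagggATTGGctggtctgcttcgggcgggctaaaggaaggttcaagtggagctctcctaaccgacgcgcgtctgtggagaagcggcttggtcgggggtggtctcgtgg

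Among protein-coding genes tested, 11325 of 13821 (81.9%) had a promoter in the RefSeq table, and motifs were searched in them on both strands. Either of the E2F sequences TTTGGCGC and TTTCCCGC was in 3.58% of all those promoters, in 16 of 42 (38.1%) of the DNA replication genes and in 0 of 39 of the mitosis genes. The CHR was in 9.77% of all promoters, in 1 of 42 (2.38%) of the DNA replication genes and in 26 of 39 (66.7%) of the mitosis genes. CCAAT boxes were in 36.4%, 54.8% and 76.9% in that order, and the GC box GGGCGG in 69.2%, 73.8% and 79.5%. Among all genes that fell, 5.77% held an E2F sequence and 12% a CHR. Fewer than 80% of the genes that rose had a promoter in the table (79%), so the same shares are not given for them. A match describes letters in this window and no binding.

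Part of the genes of the G1/S transition fell, while CDKN1A was not called. Of 22 G1 cyclins, CDKs, E2F and RB genes, 2 rose and 10 fell (range 2 to 3 higher, 7 to 13 lower). CCNE2, a cyclin that activates CDK2 at entry into S phase, fell from 23.4 and 24.7 to 7.80 and 7.61 CPM (log2 FC -1.64 ± 0.10, adjusted p = 6.08e-05). E2F2 fell from 21.6 and 21.8 to 8.79 and 8.95 CPM and CDC25A, a phosphatase that activates CDKs, from 20.9 and 18.8 to 8.17 and 8.68 CPM (log2 FC -1.24). CCND1, cyclin D1, had a log2 FC of -0.27 that did not pass (adjusted p = 0.0601). CDKN1A, which encodes the CDK inhibitor p21, was at 312 and 271 CPM with DMSO and 309 and 336 CPM with romidepsin, groups that overlap (log2 FC 0.15 ± 0.11, adjusted p = 0.343). CDKN2A rose from 17.8 and 14.6 to 30.5 and 32.4 CPM (log2 FC 0.96) and its neighbour CDKN2B, p15, from 12.5 and 12.5 to 20.9 and 19.4 CPM, whereas CDKN2C, p18, fell from 28.6 and 25.2 to 15.1 and 15.1 CPM. CDKN1C was also called lower, but not without DMSO library 1 or romidepsin library 2 (adjusted p 0.12 and 0.147).

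Most DNA replication genes were lower. The list gave 35 lower and 2 higher of 47 tested (range 1 to 2 higher, 29 to 36 lower), with a median log2 FC of -0.64. ORC1, the origin recognition subunit loaded anew in each cycle (chr1:52372829-52404459, minus strand), fell from 16.4 and 18.1 to 5.39 and 5.65 CPM (log2 FC -1.65 ± 0.13). CDT1, which loads the helicase, fell from 16.1 and 14.6 to 6.63 and 5.10 CPM. MCM4 and MCM5, subunits of the helicase, fell from 217 and 242 to 90.98 and 94.3 CPM and from 50.9 and 57.3 to 21.6 and 21.9 CPM, both with a log2 FC of -1.31. MCM10, which helps the helicase start, went from 20.02 and 22.7 to 7.86 and 8.16 CPM. The 2 members that rose were ORC2 and ORC4, with log2 FC 0.25 and 0.89, both named after their values were seen. In bulk libraries, fewer cells in S phase and less of these transcripts per cell cannot be told apart.

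Enzymes that supply deoxynucleotides moved with replication, 9 lower and 1 higher of 12 (range 1 higher, 7 to 9 lower). RRM2, the regulated subunit of ribonucleotide reductase, was at 169 and 178 CPM with DMSO and 64.7 and 62.5 CPM with romidepsin (log2 FC -1.45 ± 0.076, adjusted p = 3.64e-05). TK1, thymidine kinase, fell from 44.8 and 38.1 to 18.3 and 17.9 CPM, and TYMS, thymidylate synthase, from 171 and 128 to 63.9 and 71.2 CPM. RRM2B, the subunit that serves outside S phase, was at 593 and 570.2 against 512 and 514 CPM and did not pass. Homologous recombination and Fanconi genes gave 19 lower and 0 higher of 34 (range 0 to 1 higher, 13 to 18 lower). ATM and RAD50, which sense breaks, were at 0.029 and 0.075 on the log2 FC scale, without a call.

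Mitosis had a larger share of its members lower than any other of the 60 lists. All 48 members tested had a negative log2 FC, 44 fell at an adjusted p below 0.05 and 0 rose (range 0 higher, 36 to 44 lower), with a median of -0.70 and a range from -1.48 to -0.003. MYBL2, the transcription factor that turns on mitotic genes, had the largest change, from 38.5 and 30.3 to 12.4 and 12.3 CPM (log2 FC -1.48 ± 0.12). CDCA8, borealin of the chromosomal passenger complex, fell from 37.5 and 37.04 to 15.9 and 13.8 CPM (log2 FC -1.33), and BIRC5, survivin of the same complex, from 91.7 and 72.9 to 39.8 and 40.1 CPM. CCNA2, cyclin A, fell from 53.7 and 51.5 to 24.4 and 25.5 CPM. TOP2A, the topoisomerase that untangles sister chromatids, was at 227 and 288 against 159 and 151 CPM, a smaller change (log2 FC -0.73), and ANLN, anillin of the cleavage furrow, at 435 and 536 against 264 and 247 CPM. The groups were apart in each of these genes.

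**Figure D4:**
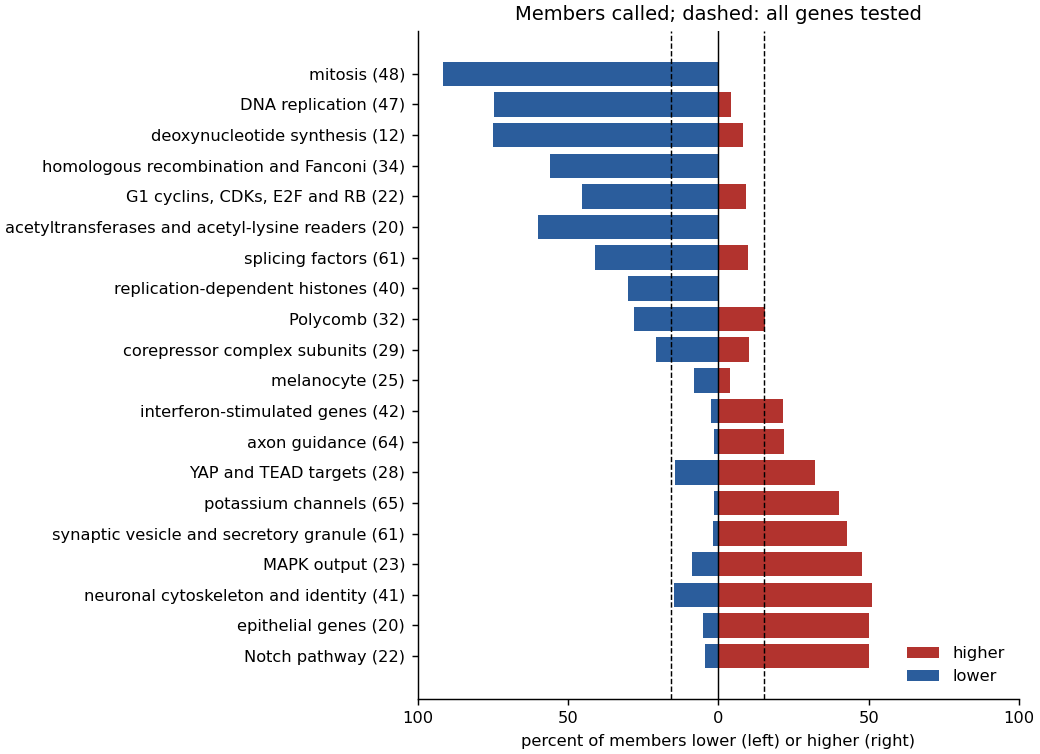
Percent of the tested members (number in brackets) of 20 gene lists called lower (blue, to the left) or higher (red, to the right) with romidepsin, with dashed lines at the shares among all genes tested, 15.8% lower and 15.2% higher. Mitosis, deoxynucleotide synthesis and DNA replication reach furthest to the left, and Notch, epithelial and neuronal lists furthest to the right.

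p53 targets had 3 of 27 higher and 7 lower (range 1 to 4 higher, 3 to 8 lower). These shares were 11.1% higher and 25.9% lower, against 15.2% and 15.8% of all genes tested. GDF15, a secreted stress cytokine, had the largest change of the list, at 102 and 133 against 311 and 292 CPM (log2 FC 1.36 ± 0.12), while DDB2, a damage sensor, fell by 0.60 on the log2 scale. The BCL2 family gave 3 higher and 2 lower of 16 (range 1 to 4 higher, 0 to 5 lower). BCL2L11 (BIM), a BH3-only protein that promotes cell death, rose from 19.7 and 17.5 to 37.2 and 33.2 CPM (log2 FC 0.92). MCL1, a protein that holds back cell death, was at 238 and 239.8 against 242 and 228 CPM, with overlapping groups and no call. BIK, another BH3-only gene, was called higher at under 2 CPM on average but not without romidepsin library 1 (adjusted p 0.12).

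Many genes of neurons rose. Of 41 genes of neuronal cytoskeleton and identity, 21 were higher and 6 lower, 10 of them past a log2 FC of 1.5 (range 15 to 22 higher, 3 to 8 lower). The share higher was 51.2%, against 15.2% of all genes tested, and the share lower was 14.6%, against 15.8%. The lowest log2 FC of the list was -1.28, and the called genes named below are all from those that rose. In 5 of these genes both DMSO libraries had at most 3 counts, so a fall could hardly be seen in them. Of 52 members counted, 41 passed the filter, and those silent with DMSO could pass it only through a drug group in which they were high. HPCAL4, a neuronal calcium sensor, was at 0.142 and 0.256 CPM with DMSO and 6.80 and 5.44 CPM with romidepsin (log2 FC 4.92 ± 0.26, adjusted p = 3.64e-05). CDK5R2, the neuronal activator p39 of CDK5, went from 0.496 and 0.438 to 6.56 and 8.02 CPM, and DPYSL5, a collapsin response mediator of growth cones, from 0.283 and 0.292 to 3.13 and 3.20 CPM. POU4F1, a POU homeobox factor of sensory neurons, was at 0.248 and 0.365 against 2.78 and 2.65 CPM. The members with the most reads did not pass: MAP1B at 383 and 518 against 511 and 475 CPM and TUBA1A at 264 and 254 against 264 and 274 CPM had overlapping or nearly overlapping groups.

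Synaptic vesicle and secretory granule genes gave 26 higher and 1 lower of 61 (range 17 to 27 higher, 0 to 2 lower), with a median log2 FC of 0.74. SV2A, a glycoprotein of synaptic vesicles, was at 5.88 and 9.46 against 37.02 and 32.03 CPM (log2 FC 2.17 ± 0.20). SYT1, the calcium sensor of fast release, went from 0.425 and 0.511 to 2.75 and 3.27 CPM and SYT2 from 0.390 and 0.292 to 2.30 and 2.48 CPM. Potassium channels gave 26 higher and 1 lower of 65 (range 16 to 27 higher, 0 to 1 lower), 19 of them past 1.5. The shares higher were 42.6% for synaptic genes and 40% for potassium channels, against 15.2% of all genes tested. Of all genes tested, 3.77% were higher past 1.5. In 5 synaptic genes and 6 potassium channel genes both DMSO libraries had at most 3 counts, so a fall could hardly be seen in them. Among all genes tested this held for 415 of 15085. Of 67 synaptic genes and 95 potassium channel genes counted, 61 and 65 passed the filter. Members silent with DMSO could pass it only through a drug group in which they were high, so the shares higher are partly set by the filter. KCNH2, the hERG channel that repolarizes heart muscle, rose from 2.16 and 2.23 to 10.96 and 9.51 CPM (log2 FC 2.22 ± 0.18), and KCNK12, a tandem-pore channel, from 0.638 and 0.475 to 3.47 and 4.58 CPM. KCNAB2, with the most reads of the list, was at 161 and 141 against 179 and 179 CPM and did not pass.

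Sodium and calcium channels and receptor subunits moved the same way with fewer calls. The shares higher were 25% and 28.1%, against 15.2% of all genes tested. In 5 and 3 of these genes both DMSO libraries had at most 3 counts, so a fall could hardly be seen in them. Of 40 channel genes and 63 receptor subunits counted, 24 and 32 passed the filter. Here too, members silent with DMSO could pass it only through a drug group in which they were high. Of 24 sodium and calcium channel genes 6 rose and 0 fell (range 4 to 9 higher, 0 lower), among them CACNA1G, a low-voltage calcium channel, at 1.52 and 1.42 against 4.50 and 5.17 CPM. Of 32 receptor subunits 9 rose and 0 fell (range 3 to 10 higher, 0 lower), among them GABRQ, a GABA-A receptor subunit, at 3.79 and 3.65 against 11.3 and 9.64 CPM. Axon guidance genes gave 14 higher and 1 lower of 64 (range 9 to 30 higher, 0 to 7 lower), the fewest higher without romidepsin library 1 and the most without DMSO library 2. The share higher was 21.9%, against the background of 15.2%. EFNA3, an ephrin, rose from 6.94 and 5.81 to 17.1 and 18.8 CPM and SEMA6A, a transmembrane semaphorin, from 21.3 and 32.3 to 60.1 and 49.97 CPM. Clustered protocadherins, surface proteins that give neurons an identity, had 4 of 46 higher, 17 without DMSO library 2 and between 2 and 4 without any other library. Their share higher, 8.70%, was under the background.

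Few genes of the melanocyte lineage were called. Melanocyte genes gave 1 higher and 2 lower of 25 (range 0 to 7 higher, 0 to 3 lower), under the background in both directions. GPNMB, a melanosomal glycoprotein, and TYRP1, a pigment enzyme, had log2 FC of 0.076 and 0.050 without a call. RAB32, a small GTPase of melanosome transport, was lower at 175 and 124 against 98.2 and 103 CPM, a call lost without DMSO library 1 (adjusted p 0.0719) or without either romidepsin library. Neural crest and glia genes gave 9 higher and 5 lower of 29 (range 6 to 9 higher, 5 to 9 lower), with a larger share called (48.3%) than over all genes (31%). NGFR, the neurotrophin receptor p75 of neural crest cells, went from 1.63 and 1.86 to 6.49 and 6.68 CPM (log2 FC 1.91) and EGR2, a regulator of myelination, from 0.709 and 0.840 to 4.60 and 4.30 CPM. SOX8, a relative of SOX10 in the crest, fell from 30.2 and 24.9 to 11.4 and 11.7 CPM (log2 FC -1.25 ± 0.11). HOX genes were near the background, 5 of 26 higher and 4 lower. These shares were 19.2% and 15.4%, against 15.2% and 15.8% of all genes tested. The median log2 FC of the list ran from 0.041 to 0.559 as each library was left out. HOXA13 was at 2.30 and 2.67 against 6.97 and 7.47 CPM.

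Epithelial genes were higher in 10 of 20 and lower in 1 (range 7 to 11 higher, 1 to 2 lower). Beside OCLN, TJP3, a tight junction scaffold, rose from 1.31 and 1.53 to 6.11 and 6.41 CPM (log2 FC 2.14), and MAL2, which carries proteins to the apical membrane, from 11.8 and 8.40 to 28.2 and 28.7 CPM. TJP1, the related scaffold ZO-1, was at 79.9 and 100.3 against 97.3 and 86.1 CPM and did not pass. The Notch pathway gave 11 higher and 1 lower of 22 (range 8 to 12 higher, 0 to 3 lower), with a median log2 FC of 0.66. JAG1, a Notch ligand, rose from 13.5 and 21.7 to 47.98 and 36.4 CPM (log2 FC 1.26 ± 0.21), and the target genes HEY1 and HES7 rose from 9.07 and 10.8 to 21.4 and 21.9 CPM and from 0.567 and 0.475 to 5.15 and 4.58 CPM. HES1, a canonical target named after its value was seen, had a log2 FC of 0.66 (adjusted p = 0.00945). NOTCH4 was called lower at under 2 CPM, but not without either romidepsin library (adjusted p 0.05 and 0.0575).

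WNT and BMP genes were called in both directions. The shares were 20.9% higher and 14.0% lower for WNT and 18.5% and 25.9% for BMP and ID genes. Of all genes tested 15.2% were higher and 15.8% lower, so the WNT list was near the background. The WNT list gave 9 higher and 6 lower of 43 (range 6 to 16 higher, 2 to 8 lower), with WNT5A, a noncanonical ligand, at 1.35 and 1.83 against 3.67 and 3.17 CPM and DKK3, a secreted relative of WNT antagonists, at 15.2 and 15.2 against 30.4 and 27.3 CPM (log2 FC 0.92). BMP feedback and ID genes gave 5 higher and 7 lower of 27 (range 3 to 6 higher, 3 to 7 lower). BMP6, a ligand, rose from 0.957 and 0.731 to 4.16 and 4.13 CPM, and GREM1, which binds and blocks BMPs, fell from 117 and 161 to 74.9 and 69.7 CPM (log2 FC -0.95 ± 0.14). Retinoid response genes gave 5 higher and 5 lower of 17 (range 3 to 6 higher, 2 to 5 lower). That is a share of 29.4% in each direction. DHRS3, which turns retinaldehyde back into retinol, fell from 33.7 and 39.4 to 14.4 and 16.3 CPM (log2 FC -1.25 ± 0.12, adjusted p = 0.000203).

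UM is driven by mutant Gq proteins that feed the MAPK and YAP pathways, so genes downstream of them were examined. MAPK output genes gave 11 higher and 2 lower of 23 (range 6 to 12 higher, 0 to 4 lower). IER3 and PHLDA1, both early response genes, rose from 118 and 122 to 247 and 252 CPM and from 84.00 and 79.3 to 143 and 148 CPM, and ETV1, an ETS factor, from 33.1 and 35.2 to 62.3 and 66.3 CPM (log2 FC 0.91). YAP and TEAD targets gave 9 higher and 4 lower of 28 (range 5 to 11 higher, 1 to 5 lower). With ANKRD1, the secreted matrix proteins CYR61 (CCN1) and CTGF (CCN2) rose, from 356 and 525 to 923 and 826 CPM (log2 FC 0.99) and from 251 and 306 to 536 and 492 CPM (log2 FC 0.88). TEAD2, a DNA-binding partner of YAP, fell from 25.6 and 19.2 to 10.4 and 9.92 CPM, and NT5E and MYOF, with the most reads of the list, had log2 FC of 0.042 and -0.052 without a call.

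Of the Gq pathway itself, 5 of 23 genes were higher and 3 lower (range 3 to 8 higher, 1 to 6 lower), close to the background. PRKCB, a protein kinase C, rose from 22.4 and 18.6 to 33.04 and 35.1 CPM and RGS2, which turns Gq off, from 15.5 and 13.1 to 21.02 and 21.1 CPM. AP-1 and immediate early genes gave 8 higher and 4 lower of 23 (range 6 to 8 higher, 0 to 7 lower). NR4A1, a nuclear receptor of the early response, rose from 96.2 and 87.5 to 182 and 187 CPM (log2 FC 1.01 ± 0.080), ATF3 from 14.9 and 11.6 to 26.2 and 22.3 CPM and JUN from 139 and 144 to 188 and 186 CPM, while FOSL2 had a log2 FC of -0.012. In the MYC network 1 of 13 rose and 4 fell (range 0 to 2 higher, 2 to 4 lower). MYC was that gene, at 102 and 101 against 118 and 121 CPM, and its call was lost without either romidepsin library (adjusted p 0.151 and 0.168). MXD4, a repressor that competes for MYC's partner MAX, fell from 62.7 and 53.1 to 29.4 and 33.2 CPM (log2 FC -0.89).

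Some genes by which tumour cells are seen by the immune system were called, and their lists moved with single libraries. CD274, the checkpoint ligand PD-L1, was at 0.673 and 0.621 CPM with DMSO and 6.39 and 4.17 CPM with romidepsin (log2 FC 3.02 ± 0.27, adjusted p = 0.000171), a rise from a very low level. ICOSLG, a costimulatory ligand, fell from 5.10 and 6.50 to 2.85 and 2.62 CPM. NKG2D and checkpoint ligands together gave 4 higher and 2 lower of 17 (range 1 to 10 higher, 2 to 4 lower). MHC class I presentation genes gave 3 higher and 1 lower of 21 (range 1 to 10 higher, 0 to 2 lower), with HLA-F at 9.25 and 11.4 against 20.1 and 15.6 CPM. The share higher was 23.5% for NKG2D and checkpoint ligands, against 15.2% of all genes tested. For MHC class I presentation it was 14.3%, under that background. The other 2 genes of the list called higher, PSMB9, an immunoproteasome subunit, among them, were each lost in 3 of the 4 leave-one-out settings. HLA-DMB, which loads peptides onto MHC class II, went from 0.142 and 0.256 to 2.44 and 2.27 CPM (log2 FC 3.54), in an MHC class II list with 2 higher and 0 lower of 7 (range 1 to 2 higher, 0 lower). The HLA genes are near copies, and reads may be split between them.

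Interferon-stimulated genes gave 9 higher and 1 lower of 42 (range 4 to 14 higher, 0 to 4 lower), the fewest higher without romidepsin library 1 and the most without DMSO library 1. The share higher was 21.4%, against 15.2% of all genes tested. For the other lists of this paragraph it was 28% (chemokines and cytokines) and 7.69% (cancer-testis antigens). The guanylate-binding protein GBP3 rose from 3.33 and 3.65 to 11.8 and 11.9 CPM (log2 FC 1.77) and SAMD9, an antiviral factor, from 24.7 and 19.8 to 49.1 and 39.2 CPM (log2 FC 0.99). BST2, a restriction factor, was at 219.5 and 246 against 239.5 and 218 CPM, without a call. Chemokines and cytokines gave 7 higher and 1 lower of 25 (range 5 to 7 higher, 1 to 2 lower). IL24, a cytokine of the interleukin-10 family, was at 3.44 and 2.81 against 12.7 and 16.2 CPM (log2 FC 2.20 ± 0.17), and the inflammatory cytokines CXCL8 and IL6 rose from 7.01 and 7.67 to 18.6 and 16.4 CPM and from 4.82 and 3.10 to 8.17 and 9.44 CPM. Cancer-testis antigens, whose copies share reads, had 1 of 13 higher and 1 lower (range 1 to 2 higher, 0 to 1 lower).

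Drug transporters were examined because romidepsin is carried out of cells by the product of ABCB1, P-glycoprotein. ABCB1 rose from 0.673 and 1.17 CPM to 4.64 and 3.24 CPM (log2 FC 2.10 ± 0.28, adjusted p = 0.000999). ABCG1, a cholesterol exporter, rose from 2.44 and 2.56 to 9.34 and 9.51 CPM (log2 FC 1.91). Among 40 ABC transporters 7 were higher and 1 lower (range 3 to 15 higher, 0 to 5 lower), a share higher of 17.5% against the background of 15.2%. Of stress genes, KEAP1, which marks the antioxidant factor NRF2 for destruction, fell from 44.4 and 40.7 to 19.2 and 21.7 CPM (log2 FC -1.05 ± 0.090), in a list of thioredoxin, glutathione and NRF2 genes with 3 higher and 4 lower of 28 (range 1 to 8 higher, 3 to 10 lower). Heat shock genes gave 7 higher and 4 lower of 26 (range 4 to 8 higher, 0 to 9 lower). HSPA2 rose from 129.8 and 149.9 to 263 and 279 CPM, HSF2, a heat shock factor, from 9.81 and 9.72 to 18.6 and 17.5 CPM, and HSPA1A and HSPA1B, near copies whose reads may be split, had log2 FC of 0.59 and 0.69. Genes of the integrated stress and unfolded protein response gave 3 higher and 4 lower of 26 (range 1 to 9 higher, 2 to 7 lower), with PPP1R15A, which reverses the stress arrest of translation, lower at 87.9 and 85.2 against 58.1 and 62.8 CPM. Metallothionein genes gave 1 higher and 1 lower of 6 (range 0 to 1 higher, 0 to 3 lower).

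Metabolic lists stayed near the background. Glycolysis gave 4 higher and 5 lower of 24 (range 2 to 9 higher, 1 to 8 lower), with SLC2A3, the glucose transporter GLUT3, at 11.6 and 17.6 against 41.3 and 37.5 CPM (log2 FC 1.43 ± 0.17) and PFKL, a phosphofructokinase, lower at 134 and 137 against 97.7 and 98.6 CPM. Cholesterol synthesis gave 4 higher and 2 lower of 25; STARD4, a cholesterol carrier, rose from 33.5 and 32.9 to 71.95 and 70.01 CPM and SREBF1, a regulator of lipid synthesis, from 47.01 and 61.8 to 99.4 and 85.9 CPM. The cholesterol list ranged from 2 to 12 higher and from 0 to 5 lower as each library was left out, with 12 higher without DMSO library 2. Fatty acid synthesis gave 2 higher and 1 lower of 13 (range 0 to 5 higher, 0 to 6 lower). Splicing factors fell more often than they rose, 25 lower and 6 higher of 61 (range 2 to 5 higher, 9 to 31 lower), with U2AF2, which finds the polypyrimidine tract, at 149 and 147 against 82.6 and 85.3 CPM and HNRNPH1 at 260.4 and 280.2 against 166 and 157 CPM. Nucleolar genes of ribosome biogenesis gave 2 higher and 5 lower of 32 (range 1 to 4 higher, 1 to 8 lower), and UBTF, the factor of RNA polymerase I, fell from 93.3 and 95.5 to 53.2 and 50.5 CPM (log2 FC -0.86).

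Several lists turned on single libraries of either group. Cytosolic ribosomal protein genes had 13 of 82 lower, a share at the background of 15.8%, and a median log2 FC of -0.41. Without DMSO library 1 there were 2 lower and a median of -0.10, and without DMSO library 2 80 lower and a median of -0.65. Without romidepsin library 1 there were 0 lower and a median of -0.29, and without romidepsin library 2 2 lower and a median of -0.54. RPS29 shows the pattern, at 58.4 and 37.9 CPM with DMSO and 23.7 and 30.99 CPM with romidepsin: DMSO library 2 lies nearer to the romidepsin libraries than to DMSO library 1, and the gene was not called without DMSO library 1 (adjusted p 0.0663) or romidepsin library 1 (0.159). Nuclear genes of the respiratory chain had 18 of 79 lower, and 4, 63, 0 and 4 when DMSO library 1, DMSO library 2, romidepsin library 1 and romidepsin library 2 were left out in turn. Proteasome genes had 17 of 37 lower, and 10, 27, 1 and 7 in the same order. In the other direction, integrin and laminin genes had 5 of 30 higher (4, 16, 2 and 6) and collagens 4 of 29 (2, 8, 2 and 2). Metalloproteases and TIMPs had 11 of 42 higher (5, 20, 5 and 6), receptor tyrosine kinases 8 of 29 (7, 18, 3 and 5) and lysosomal genes 6 of 50 (4, 22, 1 and 0). Members of these lists with calls under every leave-one-out were LAMB3, a laminin chain, at 1.13 and 3.03 against 8.31 and 6.99 CPM, ITGA2, a collagen-binding integrin, at 8.998 and 12.9 against 30.7 and 25.9 CPM, COL1A1 at 1.42 and 1.64 against 4.91 and 3.79 CPM, MMP16 at 1.10 and 1.53 against 5.05 and 4.58 CPM, FLT4, a receptor of lymphatic growth factors, at 1.38 and 0.731 against 2.92 and 2.65 CPM and, among falls, PSMD7, a proteasome lid subunit, at 52.9 and 47.5 against 29.9 and 33.8 CPM. None of the 13 genes of mitochondrial DNA was called. What set the libraries of a group apart was not tested.

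**Figure D5:**
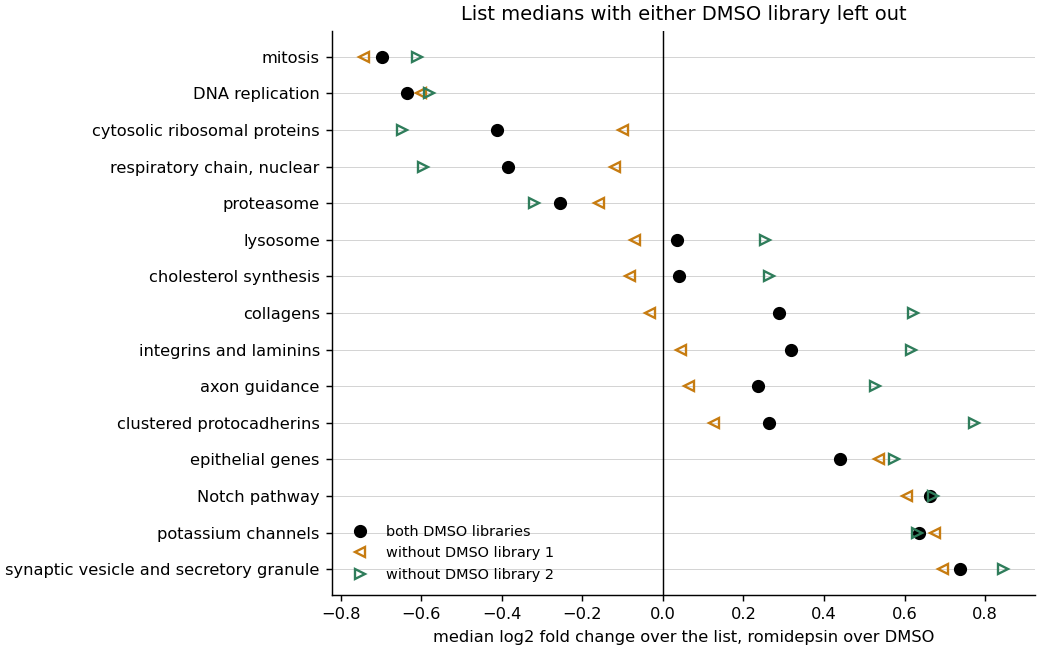
Median log2 fold change of romidepsin over DMSO (horizontal axis) for 15 gene lists, with both DMSO libraries (filled circles), without DMSO library 1 (triangles pointing left) and without DMSO library 2 (triangles pointing right). The medians of mitosis, DNA replication, Notch, potassium channel and synaptic genes lie close together in all 3 settings, while those of ribosomal proteins (-0.10 and -0.65) and of matrix genes lie well apart.

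Set against quisinostat at the same 40 nM and 24 h, romidepsin gave the smaller change in neuronal and in cell cycle genes. The difference was tested directly between the romidepsin and the quisinostat libraries. With romidepsin 2200 genes were higher (14.6%) and 3167 lower (21%) than with quisinostat, and past 1.5 on the log2 scale 27 were higher and 816 lower. With any 1 of these 4 libraries left out, 1077 to 1204 genes were higher and 1686 to 1847 lower. KIF5C reached 184 and 199 CPM with quisinostat, so its level with romidepsin was lower by 2.00 ± 0.12 on the log2 scale. Of 61 synaptic vesicle genes 36 were lower with romidepsin than with quisinostat and 1 higher, of 65 potassium channels 37 and 3, and of 32 receptor subunits 23 and 0. Single genes were ranked by this difference at an average log2 CPM of at least 2 over these libraries, where the groups do not overlap. The largest differences on the lower side included those of BEX1, KCNQ3, SYT13 and TCEAL2, which are expressed in neurons. Their log2 values for romidepsin over quisinostat were -4.31, -3.65, -3.40 and -3.34.

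Cell cycle genes were less reduced than with quisinostat. Of 48 mitosis genes 26 were higher with romidepsin and 2 lower, and of 47 DNA replication genes 22 and 1, against a background of 14.6% and 21%. Among the genes named by the rule, DHRS3 stood highest above its quisinostat level, at 14.4 and 16.3 CPM with romidepsin and 3.51 and 3.66 CPM with quisinostat (log2 difference 2.09 ± 0.14). FOS was at 56.5 and 60.3 CPM with DMSO, 64.3 and 71.2 CPM with romidepsin and 17.8 and 18.3 CPM with quisinostat. Splicing factors, nucleolar genes and melanocyte genes were also more often higher with romidepsin, 32 of 61, 19 of 32 and 15 of 25. CGN went the other way from most rises, since its 13.2 and 12.9 CPM with romidepsin lay above the 9.62 and 9.30 CPM with quisinostat (log2 difference 0.46 ± 0.12, adjusted p = 0.0152). Scaling by total counts alone, which moved the split of these calls, left 1298 genes higher and 4307 lower. The doses were equal in nM, not in potency, so these differences describe the 2 treatments as given.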

How the data were processed

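MP38 cells were treated for 24 h, and RNA was sequenced as strand-specific mRNA libraries with paired-end reads. The authors deposited counts per gene symbol, whole numbers without normalization, for 8 libraries (28483235 to 29359024 counts each); they analysed the study with BioJupies. The aligner and annotation are not given in the sources used here; the submitters' processing notes name hg38. Tables of log CPM and quantile-normalized values were not used.

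The quasi-likelihood test of edgeR 4.0.16 (R 4.3.3) was fitted to the counts of the 8 libraries in 4 groups, after TMM scaling and filterByExpr, with Benjamini-Hochberg adjustment over all genes tested (threshold 0.05, biological coefficient of variation 0.0938). CPM are TMM-scaled, and log2 CPM used a prior count of 2. SE is the absolute log2 FC divided by the square root of F. The script was tested on simulated data. DESeq2 1.42.0, limma-voom (limma 3.58.1), other factors and filters, the 4 libraries alone, a replicate block and each library left out were alternatives. Coordinates, transcripts and overlaps came from GENCODE 29 on GRCh38, and promoters from RefSeq. Python 3.11.15, pandas 2.3.3 and matplotlib 3.10.9 served for tables and figures.

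Genes were named by a rule: the 15 largest rises and 12 largest falls among called genes at an average log2 CPM of at least 2 whose groups do not overlap, up to 4 called members of each list by size at an average log2 CPM of at least 0, up to 2 with the highest mean CPM, all members of lists of 8 or fewer, and the 5 genes on each side with the largest difference from quisinostat. The last were held to the limits of the rises and falls, over the romidepsin and quisinostat libraries. Some genes that the rule names are not reported here. The gene lists and members were chosen with earlier results of these data known. Lists are described by counts and medians, without a test of the list. Libraries are separate wells of 1 cell line, and depth limits precision less than having 2 libraries a group.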

Additional observations from a re-analysis of the deposited data

How the results depend on the processing

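Under every alternative run, no gene called higher or lower was called in the opposite direction. Most counts of calls stayed within 1.5 times the reported ones. With only the 4 libraries compared, which leaves 2 degrees of freedom, 1427 genes were higher and 1116 lower; 1416 and 1114 of them were among the reported calls. Restricting the test to genes averaging 5 CPM or more left fewer genes to call: 133 were higher and 14 lower past a log2 FC of 1.5, and 2001 lower than with quisinostat. Against quisinostat, total counts alone gave 1298 genes higher, and only the libraries compared gave 3545. Upper-quartile factors gave 2883 higher and 1665 lower (63.4% higher), total counts alone 2787 and 1700 (62.1%), against 49.1%; the cause was not tested. DESeq2 gave 2145 and 2190, limma-voom 2304 and 2327.

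Leaving out a library gave 1201 to 3159 genes higher and 985 to 3468 lower, lowest without romidepsin library 1 and highest without DMSO library 2. Past the fold threshold the ranges were 418 to 623 higher and 35 to 75 lower, and against quisinostat 1077 to 1204 higher and 1686 to 1847 lower. A group of 1 library was assumed to vary like the others. Of 263 named genes called, 181 were still called without romidepsin library 1, 202 without romidepsin library 2, 230 without DMSO library 1 and 257 without DMSO library 2. SCD, not called (log2 FC -0.010), was called higher without DMSO library 2, at a log2 FC of 0.30 (adjusted p 0.0303), and was at -0.24 without DMSO library 1.

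The labels number the libraries of each group. Deviations of same-numbered libraries from their group means correlated at 0.146 for DMSO with quisinostat, 0.158 for DMSO with mivebresib and 0.064 for quisinostat with mivebresib. Those of the romidepsin libraries correlated at -0.162 with DMSO, -0.120 with quisinostat and -0.070 with mivebresib. What lies behind these values was not tested. A replicate block gave 2228 higher and 2311 lower (543 and 46 past the fold threshold), and 2173 and 3065 against quisinostat. A crossed pairing of control and romidepsin libraries, added after seeing the data, gave 2998 and 3550.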
